A study of Mus musculus with 35 samples.

Results

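The genes described here are 9 genes known to respond to glucocorticoid hormones: Fkbp5, Tsc22d3, Zbtb16, Klf9, Sgk1, Errfi1, Mt1, Lcn2 and Pdk4. They were taken by name from a list of 10, and the tenth, Mt2, is not annotated to any probe set of the array by the platform annotation used here. They are 9 of 17097 genes measured, and 19 probe sets carry their symbols alone. Each gene is given by its brightest probe set, the one with the highest mean over all 35 arrays.

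The study measured RNA of the whole lung of adult male CD-1 mice, an outbred stock, after inhalation of styrene, a solvent and plastics monomer. There were 7 groups of 5 mice each: air alone, and 1, 5, 10, 20, 40 or 120 ppm styrene in air. The labels differ on the length of the exposure: the protocol describes 1 session of 6 hours and the sample titles give 1 day, while the sample characteristics and the series title give 5 days, so the length is left unsettled here. Mice were killed on the morning after the last exposure, and no treatment other than styrene is named for any group.

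Corticosterone, the main glucocorticoid of mice, binds the glucocorticoid receptor, which heat shock proteins hold ready in the cytoplasm. The loaded receptor moves to the nucleus, binds palindromic DNA elements near its target genes and raises their transcription, and several of the targets limit inflammation or damp the hormone signal itself. Blood corticosterone follows a daily rhythm and rises under stress, and the lung is a tissue with abundant receptor.

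Values are log2 expression values of each array, and a difference of 1 is a doubling. A difference was called where its adjusted p from limma, fitted over all genes, was under 0.05. Arrays fell into sets that matched the concentration groups: the interquartile range of the log2 values of an array was 2.66 to 3.16 in the 10 mice of air and 1 ppm and 3.28 to 3.54 in the 25 mice of 5 to 120 ppm. The array sets and the concentrations cannot be told apart, and every comparison of 5 ppm or more with air crosses from the first set into the other. With the interquartile range as a covariate, 0 of the 9 genes were called in any comparison with air. That range does not overlap between the sets, so fitting it also takes out much of any difference between them. Under quantile normalization 98 results of single members stayed on their side of the threshold and 1 lost its call. All comparisons with air share the same 5 control mice. The markers of whole lung, 7 of 8 of which were measured, averaged 11.4 to 11.9 in every mouse, so each sample held lung tissue. That average does not show what other tissue was present, and heart muscle markers averaged from 4.82 to 11.1 across mice.

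Among the 9 genes, Klf9 rose at each concentration from 5 to 120 ppm, and Sgk1, Errfi1 and Lcn2 rose at some of them. Fkbp5, Tsc22d3, Zbtb16 and Mt1, among the most widely used readouts of glucocorticoid action, were called in no comparison by their brightest probe sets. They differed widely between mice of the same group, Zbtb16 and Fkbp5 most. The standard deviation within groups was 1.26 for Zbtb16 and 0.861 for Fkbp5, against a median of 0.206 over all genes. Mice with higher Fkbp5 tended to have higher Zbtb16 and Tsc22d3, both in air and 1 ppm and in 5 to 120 ppm.

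The promoter stretches of 3 members are shown first, because they hold the letters of the receptor's element or of part of it. Windows of 300 bases, from 250 before to 50 after each annotated start, were read from RefSeq on GRCm38.p6, where 8 of the 9 genes have 16 windows. They were searched on both strands for 3 forms of the receptor's element. The full palindrome is the arm AGAACA, 3 bases of any kind and the mirrored arm TGTTCT, and the shorter form is GNACA, 3 bases of any kind and TGTNC. The arm AGAACA was also searched alone, and it overlaps the palindrome. The full palindrome occurs in 3 of 32851 windows of all genes (0.00913%), and 1 of these is a start site of Sgk1. That gene has 6 windows in all. The 250 bases before this start lie at chr10:21993640-21993889 on the plus strand, with the palindrome in capitals, at -189 to -175 from the start.
Sgk1: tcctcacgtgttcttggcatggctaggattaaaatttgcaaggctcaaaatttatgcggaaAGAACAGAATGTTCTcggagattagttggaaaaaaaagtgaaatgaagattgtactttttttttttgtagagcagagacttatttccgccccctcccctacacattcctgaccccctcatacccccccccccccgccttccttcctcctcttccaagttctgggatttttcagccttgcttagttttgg
The shorter form occurs in 156 windows (0.475%), and those of Sgk1 and Mt1 are among them. In Mt1 it lies at -94 to -82 from the start, shown in capitals within chr8:94178987-94179015 on the plus strand. Mt1 is also known for metal response elements, and their core TGCACNC, found in 12.6% of windows, lies at -23 to -17 from the start, shown in capitals within chr8:94179055-94179083. The other form of that core, TGCGCNC, is in 15.4% of windows, those of Mt1 and Sgk1 among them.
Mt1, shorter palindrome: cactatagGGACATGATGTTCcacacgtc
Mt1, metal core: cggtcccgctgTGCACACtggcgctccag
The AGAACA arm occurs in 6233 windows (19.0%) and in 4 of the 16 windows of the members, 3 of Sgk1 and 1 of Tsc22d3. The 250 bases before that start of Tsc22d3 lie at chrX:140600523-140600772 on the minus strand, with the arm, on the opposite strand of the gene, in capitals.
Tsc22d3: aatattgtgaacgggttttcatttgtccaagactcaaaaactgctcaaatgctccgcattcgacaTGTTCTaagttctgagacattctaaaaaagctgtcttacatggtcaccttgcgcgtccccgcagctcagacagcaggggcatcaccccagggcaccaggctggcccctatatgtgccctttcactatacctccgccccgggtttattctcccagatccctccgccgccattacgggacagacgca
These matches are letters in a window and not measured sites. The 62 measured genes whose windows hold the shorter form had a median correlation with Fkbp5 between mice of 0.0718, against 0.0202 over all genes.

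**Figure D1:**
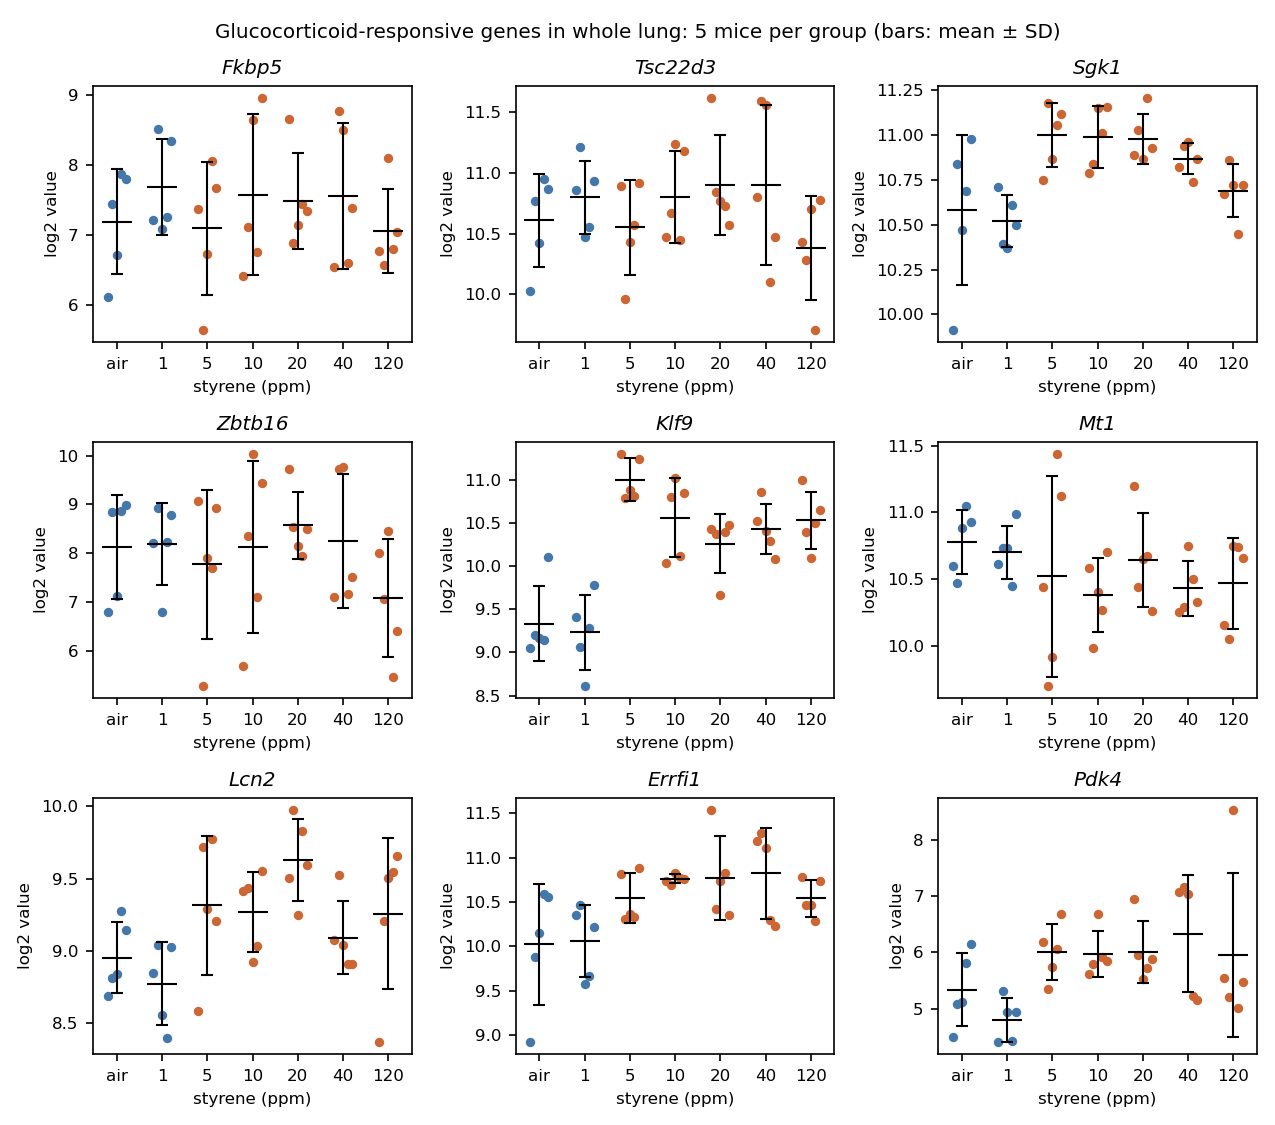
Log2 value of each gene (vertical axis, own scale per panel) in each of 35 mice by styrene concentration in ppm (horizontal axis, evenly spaced groups). Points are mice, blue for air and 1 ppm and orange for 5 to 120 ppm, and bars are the group mean ± SD of 5 mice. Klf9 steps up from a mean of 9.33 in air to 11 at 5 ppm, while the points of Fkbp5 and Zbtb16 spread widely in every group.

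Klf9, a transcription factor induced by glucocorticoids and thyroid hormone, gave the clearest difference from air. The 5 air mice, numbered in the order of their labels, read 9.05, 9.20, 9.16, 9.14 and 10.10, and the 1 ppm mice read 9.41, 9.07, 8.61, 9.28 and 9.78. At 5 ppm the values were 11.30, 10.79, 10.88, 10.81 and 11.24, all above the highest air mouse. Air mouse 5 lay well above the other air mice and inside the range of the higher concentrations. At 10 ppm the values were 10.03, 10.80, 11.02, 10.12 and 10.85, and at 20 ppm 10.43, 10.37, 9.66, 10.39 and 10.47. At 40 ppm they were 10.52, 10.86, 10.41, 10.29 and 10.08, and at 120 ppm 10.99, 10.39, 10.09, 10.50 and 10.65. From 10 to 120 ppm each group overlapped air through that mouse alone.

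The difference from air was 1.67 ± 0.221 (SE) at 5 ppm, or 3.19-fold (limma, adjusted p = 3.74e-08, higher than the air mean in 5 of 5 mice). It was 1.23 at 10 ppm, 0.93 at 20 ppm, 1.10 at 40 ppm and 1.19 at 120 ppm, with adjusted p from 1.12e-05 to 4.81e-04. At 1 ppm it was -0.10 (adjusted p = 0.897). Among the higher concentrations no difference of Klf9 was called: 5 against 10 ppm differed by 0.44 ± 0.221 (adjusted p = 0.143) and 120 against 40 ppm by 0.092 (adjusted p = 0.959). The slope on log2 of the concentration plus 1 was 0.18 per doubling (adjusted p = 4.17e-04), and over 10 to 120 ppm alone it was 0.012 (adjusted p = 0.98). Of 5 probe sets for Klf9, 4 gave differences of 0.82 to 1.67 at 5 ppm, and the dim 1452723_PM_at, at 2.90 in air, gave -0.087 (adjusted p = 0.309). With the interquartile range of the array as a covariate the difference at 5 ppm was 0.74 (adjusted p = 0.191), and with the leading axis of the arrays as a covariate it was -0.50.

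Sgk1 encodes a kinase that regulates sodium channels and other transporters in epithelia. The air mice read 9.91, 10.84, 10.47, 10.69 and 10.98, and the 1 ppm mice 10.71, 10.39, 10.37, 10.61 and 10.50. Values were 10.75, 11.18, 10.87, 11.06 and 11.12 at 5 ppm and 10.79, 10.84, 11.15, 11.01 and 11.16 at 10 ppm. The lowest air mouse, mouse 1, lay below all others, and both groups overlapped air. At 20 ppm Sgk1 read 10.89, 11.03, 10.87, 11.21 and 10.93, at 40 ppm 10.82, 10.94, 10.96, 10.74 and 10.87, and at 120 ppm 10.67, 10.86, 10.72, 10.45 and 10.72. The difference from air was 0.42 ± 0.131 at 5 ppm (limma, adjusted p = 0.005), 0.41 at 10 ppm (adjusted p = 0.00674) and 0.40 at 20 ppm (adjusted p = 0.00809). It missed the threshold at 40 ppm (0.29, adjusted p = 0.0548) and at 120 ppm (0.11, adjusted p = 0.472), and 120 against 40 ppm was not called (-0.18 ± 0.131, adjusted p = 0.727). Air mouse 1 bore on all 3 values: leaving it out gave 0.25 at 5 ppm (adjusted p = 0.0381), 0.24 at 10 ppm (adjusted p = 0.0495) and 0.24 at 20 ppm (adjusted p = 0.0587). The call at 40 ppm was gained by leaving out air mouse 2 (0.35, adjusted p = 0.026) or 5 (0.39, adjusted p = 0.00992), or mouse 4 of the 40 ppm group (0.32, adjusted p = 0.0499).

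Errfi1 encodes a feedback inhibitor of the epidermal growth factor receptor. In air Errfi1 read 8.92, 9.88, 10.15, 10.59 and 10.56, and at 1 ppm 10.35, 10.47, 9.57, 9.67 and 10.22. The 5 ppm mice read 10.81, 10.31, 10.36, 10.33 and 10.88, and the 10 ppm mice 10.74, 10.69, 10.83, 10.77 and 10.76. The 10 ppm mice lay close together and above every air mouse, while air mouse 1 lay well below the other air mice. The 20 ppm mice read 11.54, 10.42, 10.73, 10.82 and 10.35, the 40 ppm mice 11.19, 11.28, 11.11, 10.30 and 10.23, and the 120 ppm mice 10.78, 10.47, 10.46, 10.28 and 10.73. Errfi1 rose by 0.74 ± 0.253 at 10 ppm (limma, adjusted p = 0.0109), 0.75 at 20 ppm (adjusted p = 0.0103) and 0.80 at 40 ppm (adjusted p = 0.00636). The differences of 0.51 at 5 ppm (adjusted p = 0.0634) and 0.52 at 120 ppm (adjusted p = 0.0657) missed the threshold, with 5 of 5 mice above the air mean in both. Without air mouse 1 the difference was 0.46 at 10 ppm (adjusted p = 0.0771) 0.48 at 20 ppm (adjusted p = 0.0726) and 0.52 at 40 ppm (adjusted p = 0.0473). Leaving out 20 ppm mouse 1 gave 0.56 at 20 ppm (adjusted p = 0.0526). Without air mouse 4 it was 0.66 at 5 ppm (adjusted p = 0.0241) and 0.66 at 120 ppm (adjusted p = 0.0258), and without air mouse 5 it was 0.65 (adjusted p = 0.0255) and 0.66 (adjusted p = 0.0268). Air mouse 1, low for Sgk1 and Errfi1, had the highest heart muscle marker level of the air mice, 9.99. With that level as a covariate the calls of both genes were the same, but the fit has 1 slope for all mice. The r of Sgk1 with that level was -0.689 in air and 1 ppm and -0.019 in 5 to 120 ppm, and that of Errfi1 -0.567 and 0.305. The part of heart muscle in the values of air mouse 1 was not tested.

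Lcn2, a secreted iron-trapping protein of epithelium and neutrophils, also answers to inflammatory signals. The air mice read 8.69, 8.81, 8.84, 9.28 and 9.15, and the 20 ppm mice 9.50, 9.98, 9.25, 9.83 and 9.59. At 20 ppm 4 of 5 mice lay above every air mouse, and the difference was 0.68 ± 0.213 (limma, adjusted p = 0.00636). Values were 8.85, 9.04, 8.55, 8.39 and 9.03 at 1 ppm, 8.58, 9.72, 9.29, 9.78 and 9.20 at 5 ppm and 9.42, 9.44, 8.92, 9.03 and 9.55 at 10 ppm. At 40 ppm they were 9.07, 9.53, 9.04, 8.91 and 8.91, and at 120 ppm 8.37, 9.21, 9.51, 9.55 and 9.66. Each of these groups overlapped air, and their differences ran from -0.18 at 1 ppm to 0.36 at 5 ppm without being called. The low mouse 1 of the 5 ppm group and of the 120 ppm group bore on this: without it the difference was 0.55 at 5 ppm (adjusted p = 0.0186) and 0.53 at 120 ppm (adjusted p = 0.0187). The mean neutrophil marker level, from 8 of 10 markers measured, was 6.43 to 7.77 in air and 6.36 to 7.41 at 20 ppm. Its correlation with Lcn2 between mice is given below.

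Pdk4 encodes pyruvate dehydrogenase kinase, which spares glucose during fasting, and is abundant in muscle. In air Pdk4 read 4.50, 5.09, 5.12, 5.82 and 6.15, and at 1 ppm 4.401, 5.32, 4.94, 4.42 and 4.95. The 5 ppm mice read 6.19, 5.35, 5.74, 6.07 and 6.68, the 10 ppm mice 5.62, 5.79, 6.69, 5.92 and 5.85 and the 20 ppm mice 6.96, 5.96, 5.53, 5.72 and 5.89. At 40 ppm they read 7.08, 7.16, 7.04, 5.23 and 5.16, so that 3 mice were high and 2 lay with the air mice, and at 120 ppm 5.54, 5.21, 8.54, 5.02 and 5.47, where mouse 3 stood alone. No concentration differed from air beyond the threshold, the nearest being 1.00 ± 0.474 at 40 ppm (limma, adjusted p = 0.0653). Leaving out air mouse 5 (1.20, adjusted p = 0.0356), or mouse 4 (1.27, adjusted p = 0.025) or 5 (1.29, adjusted p = 0.0213) of the 40 ppm group, brought it past the threshold. The slope of 0.16 per doubling was called (adjusted p = 0.0164), and without 120 ppm mouse 3 it was 0.11 (adjusted p = 0.0648).

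Heart muscle markers, of which 7 of 8 were measured, moved with Pdk4 in some mice. Their mean level was 7.13 to 9.99 in air, 6.37 to 10.9 at 40 ppm and 4.82 to 11.1 at 120 ppm, and the highest value belonged to 120 ppm mouse 3. In whole lung, more cells of a type and more RNA per cell cannot be told apart. With this level as a covariate, an alternative chosen after seeing the data, the limma difference of Pdk4 was 1.17 at 5 ppm (adjusted p = 0.0125), 1.13 at 10 ppm (adjusted p = 0.0182), 1.09 at 20 ppm (adjusted p = 0.0216) and 1.01 at 40 ppm (adjusted p = 0.0259). It was not called at 120 ppm (0.88, adjusted p = 0.0527) or at 1 ppm (-0.42, adjusted p = 0.684). This fit has 1 slope for all mice, while the r of Pdk4 with the level was -0.254 in air and 1 ppm and 0.708 in 5 to 120 ppm. The mean level was 8.42 in air and 7.08 at 5 ppm, so these differences rest on that slope.

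Fkbp5 encodes a receptor cochaperone that lowers hormone binding and is itself induced by the hormone. The air mice read 6.11, 7.44, 6.71, 7.87 and 7.79, the 1 ppm mice 7.20, 8.51, 7.08, 7.25 and 8.34 and the 5 ppm mice 7.37, 5.63, 6.73, 8.06 and 7.67. The groups overlapped widely. At 10 ppm the values were 6.41, 7.11, 8.64, 6.75 and 8.96, at 20 ppm 8.65, 6.87, 7.13, 7.43 and 7.34, at 40 ppm 6.54, 8.76, 8.49, 6.60 and 7.39 and at 120 ppm 6.77, 6.57, 8.09, 6.80 and 7.03. At 40 ppm mice 2 and 3 were high and mice 1 and 4 were low. Differences from air ran from -0.13 ± 0.508 at 120 ppm to 0.49 ± 0.508 at 1 ppm, with adjusted p from 0.503 to 0.868. Of 3 probe sets, the very dim 1447736_PM_at was higher at 1 ppm (3.63 against 2.90 in air, adjusted p = 0.00584).

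Zbtb16, a zinc finger transcription factor, is among the genes most strongly induced by glucocorticoids in many cell types. Zbtb16 read 6.79, 8.84, 7.13, 8.86 and 8.99 in air, and the values of the 1 ppm mice were 8.21, 8.93, 6.79, 8.24 and 8.78 and those of the 5 ppm mice 9.07, 5.27, 7.90, 7.69 and 8.92. The widest group was 10 ppm, with an SD of 1.76, where the values were 5.70, 8.35, 10.04, 7.10 and 9.43. The 20 ppm mice read 9.72, 8.53, 8.15, 7.95 and 8.502, the 40 ppm mice 7.10, 9.72, 9.77, 7.17 and 7.52 and the 120 ppm mice 8.0, 7.07, 8.45, 5.45 and 6.41. The 120 ppm mean was the lowest, at -1.05 ± 0.741 from air (limma, adjusted p = 0.206). The dimmer probe set of Zbtb16, 1427638_PM_at, was lower at 120 ppm by -1.96 (4.79 against 6.74, adjusted p = 0.00484). In the same limma fits it was called for a downward slope (-0.241, adjusted p = 0.00387) and over the 7 groups (adjusted p = 0.0466). Its differences of -1.11 at 5 ppm (adjusted p = 0.0903) and -1.16 at 10 ppm (adjusted p = 0.0884) were not called.

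Tsc22d3 encodes GILZ, a leucine zipper protein that mediates anti-inflammatory actions of the hormone. Tsc22d3 read 10.03, 10.77, 10.42, 10.95 and 10.87 in air, 10.86, 11.21, 10.47, 10.55 and 10.93 at 1 ppm and 10.89, 9.96, 10.43, 10.57 and 10.92 at 5 ppm. At 10 ppm the values were 10.47, 10.67, 11.24, 10.45 and 11.18, at 20 ppm 11.62, 10.84, 10.77, 10.73 and 10.57, at 40 ppm 10.80, 11.59, 11.56, 10.10 and 10.47 and at 120 ppm 10.43, 10.28, 10.70, 9.70 and 10.78. All groups overlapped air, and the differences ran from -0.23 at 120 ppm to 0.29 ± 0.26 at 20 ppm, with adjusted p from 0.321 to 0.839. The probe set 1425557_PM_x_at, whose suffix marks probes that may also match other transcripts, was lower at 5 ppm by -0.34 (adjusted p = 0.0362).

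Mt1 encodes a metal-binding protein induced by zinc, cadmium and glucocorticoids alike. The air mice read 10.60, 10.47, 10.88, 11.05 and 10.93, and the widest group was 5 ppm, at 10.44, 9.70, 9.92, 11.44 and 11.12. In the other groups the values lay between 9.98 and 11.20, and the 5 ppm mice ended both the upper and the lower side of the range. Differences from air ran from -0.40 ± 0.229 at 10 ppm to -0.083 at 1 ppm, none called, with 5 of 5 mice below the air mean at 10, 40 and 120 ppm. Without 5 ppm mouse 4 the difference at 5 ppm was -0.49 (adjusted p = 0.0392). The second Mt1 probe set, 1451612_PM_at, reads only 4.07 in air, and it was lower from 5 ppm on, by -0.56 at 5 ppm (adjusted p = 1.60e-04) and -0.38 at 120 ppm (adjusted p = 0.00882).

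**Figure D2:**
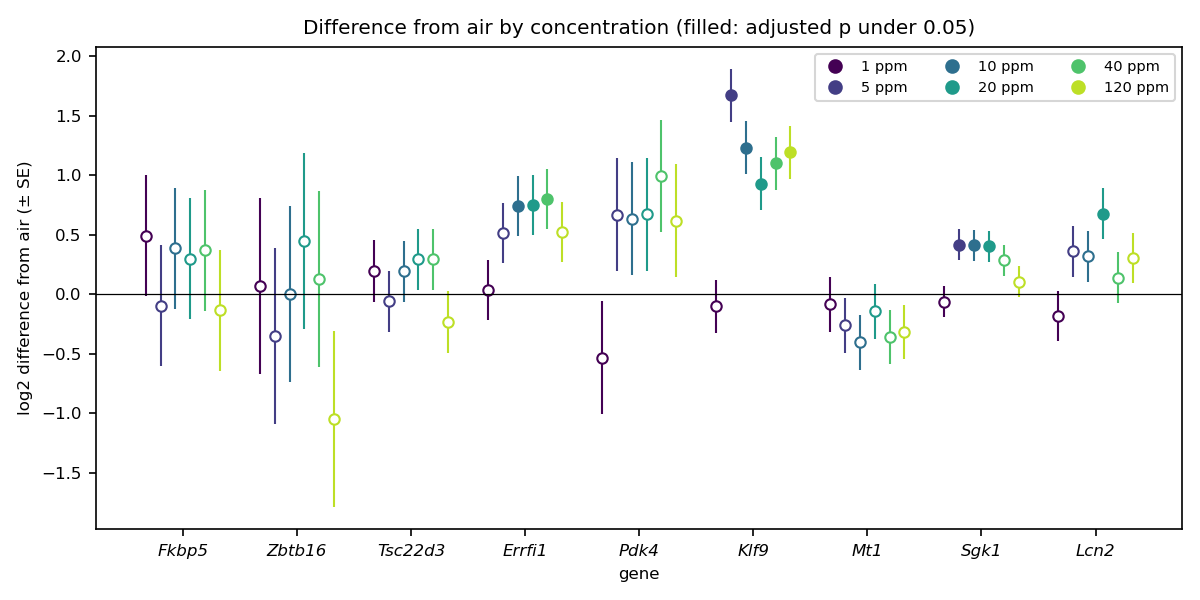
Log2 difference from air (vertical axis, ± SE from limma) for each gene (horizontal axis) at 6 styrene concentrations, by colour, from 5 exposed and 5 air mice each. Filled points were called at an adjusted p under 0.05 over all genes: Klf9 is filled from 5 to 120 ppm, and Fkbp5, Zbtb16, Tsc22d3, Pdk4 and Mt1 have no filled point.

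Counted together, 0 of 9 members were called at 1 ppm, where 2.46% of all genes were. The count was 2 of 9 at 5 ppm (Klf9 and Sgk1), where 77.0% of all genes were called, and 3 of 9 at 10 ppm (with Errfi1), where 66.4% were. It was 4 of 9 at 20 ppm (with Lcn2) against 63.6% of all genes, 2 of 9 at 40 ppm (Klf9 and Errfi1) against 64.8%, and 1 of 9 at 120 ppm (Klf9) against 68.9%. All these calls, by the brightest probe sets, were upward, and 29.6%, 29.0%, 29.4%, 28.6% and 29.8% of all genes were called upward at 5, 10, 20, 40 and 120 ppm in turn. The members' median difference ran from -0.062 at 1 ppm to 0.45 at 20 ppm, while the median over all genes was -0.23 at 5 ppm and -0.11 at 20 ppm. Without air mouse 1, 2 of 9 were called at 20 ppm. At 40 ppm 4 of 9 were called without air mouse 5 or without 40 ppm mouse 4, and at 120 ppm 2 of 9 without air mouse 4, air mouse 5 or 120 ppm mouse 1.

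Any difference among the 7 groups was called for 4 of 9 members, against 82.4% of all genes. These were Klf9 (limma F, adjusted p = 1.34e-08), Sgk1 (adjusted p = 0.00169), Errfi1 (adjusted p = 0.0114) and Lcn2 (adjusted p = 0.0137). The slope over concentration was called for 3 of 9 (Klf9, Errfi1 and Pdk4), all upward, against 72.6% of all genes in either direction and 30.9% upward. No member was called between 5 and 10 ppm, where 27.2% of genes were, between 120 and 40 ppm, where 0.0175% were, or among 10 to 120 ppm, where 0.0292% were. At an unadjusted p under 0.05, 0 of 9 passed in each of these 3 comparisons.

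Most members varied more between mice of the same group than most genes did. The spread was measured as the standard deviation within groups, pooled over the 7 groups. Zbtb16, at 1.26, stood at the 99.8th percentile of all genes, Fkbp5, at 0.861, at the 99.5th and Pdk4, at 0.803, at the 99.4th. Tsc22d3 (0.435), Errfi1 (0.423), Mt1 (0.382) and Klf9 (0.369) were also above the 90th percentile of 0.355, and Lcn2 (0.354) lay just under it. Sgk1, at 0.210, lay at the 51.6th percentile. Against the 1000 genes nearest in level, Fkbp5 stood at the 99.4th percentile and Sgk1 at the 74.6th. These ranks describe these arrays and carry no test.

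The share of a gene's variance that lay between the 7 groups ran from 8.7% for Fkbp5 and 13.3% for Zbtb16 to 77.6% for Klf9. It was 14.2% for Mt1, 18.4% for Tsc22d3, 31.0% for Pdk4, 39.7% for Lcn2, 40.3% for Errfi1 and 50.9% for Sgk1. Group means of Fkbp5 spanned 0.624, less than the median gene's 0.832, while those of Klf9 spanned 1.77.

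**Figure D3:**
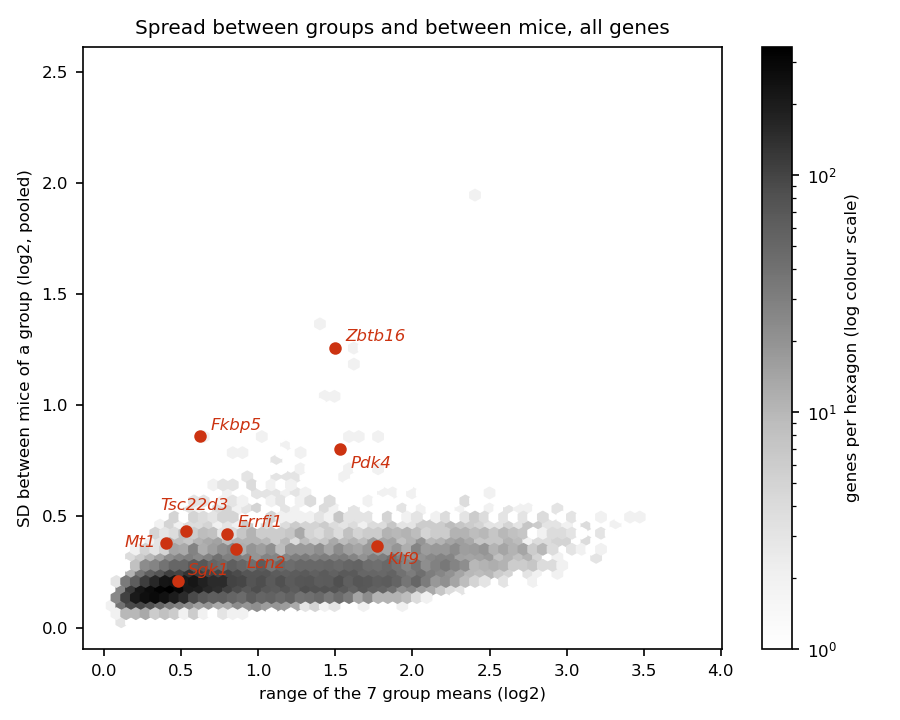
Pooled SD between mice of the same group (vertical axis, log2) against the range of the 7 group means (horizontal axis, log2) for all 17097 genes, as hexagons shaded by the number of genes on a log colour scale, with the 9 members as red points. Zbtb16, Fkbp5 and Pdk4, at 1.26, 0.861 and 0.803, lie far above most genes, and Klf9, at a range of 1.77, is the member farthest to the right.

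The members' deviations from their group means were then correlated over the 35 mice, which leaves out every difference between groups. Of 36 pairs, 18 had an adjusted permutation p under 0.05 (two-sided, 100000 permutations within groups, Benjamini-Hochberg over the 36), all with a positive r. The share of such pairs among all genes was not computed, so this count has no background. A member's median r with the others ran from 0.147 for Lcn2 to 0.576 for Tsc22d3. Their medians over all genes were 0.00286 and 0.00293. Pairs of genes share the arrays, so an error of an array would also be shared. With the interquartile range of the array removed as well, the r of Fkbp5 with Zbtb16 was 0.844, as it was before. That range gave an r of only -0.0281 with Fkbp5 and 0.00401 with Zbtb16, so removing it could hardly change the value. Other errors shared by an array were not tested.

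Fkbp5 and Zbtb16 gave r = 0.844 and rho = 0.806 (permutation p = 1e-05 each, the smallest these permutations can give, adjusted p = 9e-05). Leaving out the 2 mice farthest from the median of Fkbp5 gave r = 0.829. Within air and 1 ppm r was 0.886 and within 5 to 120 ppm 0.835, so the pair varied together in both array sets. Tsc22d3 with Zbtb16 gave r = 0.837 (rho = 0.851) and Fkbp5 with Tsc22d3 r = 0.830 (rho = 0.795), with the same permutation p and adjusted p for each and 0.828 and 0.814 without the 2 farthest mice. In air and 1 ppm these pairs gave 0.900 and 0.932, and in 5 to 120 ppm 0.824 and 0.807. Higher values of 1 of these 3 genes thus tended to go with higher values of the others, in both array sets. The mean heart muscle marker level moved with all 3 in air and 1 ppm, where its r was -0.60 with Fkbp5, -0.68 with Tsc22d3 and -0.78 with Zbtb16. In 5 to 120 ppm it was 0.119, 0.165 and 0.223, and over all 35 mice -0.0096, 0.0229 and 0.0612. Air mouse 1, with the highest heart muscle level of the air mice, was the lowest air mouse for each of the 3 genes. The part of heart muscle in their shared variation was not tested.

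Errfi1 and Pdk4 joined them. Tsc22d3 with Errfi1 gave r = 0.760 (rho = 0.749, permutation p = 1e-05 each, adjusted p = 9e-05 each, 0.714 without the 2 farthest mice). Tsc22d3 with Pdk4 gave r = 0.694 (rho = 0.688, permutation p = 1.30e-04 and 1.20e-04, adjusted p = 9.36e-04 and 8.64e-04, 0.655 without the 2 farthest). Within air and 1 ppm these were 0.900 and 0.761, and within 5 to 120 ppm 0.771 and 0.684. The mouse highest for Tsc22d3 was also highest for Errfi1 in 6 of 7 groups, for Pdk4 in 5, for Fkbp5 in 4 and for Zbtb16 in 3, and the mouse highest for Fkbp5 was highest for Zbtb16 in 3. Mt1 varied with Fkbp5 (r = 0.592, rho = 0.548, permutation p = 3.30e-04 and 0.00184, adjusted p = 0.00148 and 0.00602, 0.625 without the 2 farthest, 0.548 and 0.607 within the array sets).

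Klf9 and Sgk1, the members with the largest shares of variance between groups, passed in 4 and 1 of their 8 pairs. Klf9 gave r = 0.565 with Zbtb16 (rho = 0.597, permutation p = 0.00137 and 9.90e-04, adjusted p = 0.00448 and 0.00408, 0.518 without the 2 farthest, 0.617 and 0.572 within the sets) and 0.418 with Fkbp5 (permutation p = 0.0249, adjusted p = 0.0499). Sgk1 passed with Tsc22d3 (r = 0.378, rho = 0.351, permutation p = 0.0211 and 0.0463, adjusted p = 0.0446 and 0.0877, 0.433 without the 2 farthest, 0.667 and 0.280 within the sets). That pair and those of Mt1 with Tsc22d3 and with Pdk4 passed by r and not by rho.

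Lcn2 passed in none of its 8 pairs, the highest r being 0.274 with Sgk1 (permutation p = 0.106, adjusted p = 0.159). Its pair with Tsc22d3 gave 0.849 within air and 1 ppm (adjusted p = 0.0296) and -0.041 within 5 to 120 ppm (adjusted p = 0.874), and the difference between the sets was not tested. Lcn2 with Errfi1 gave 0.836 (adjusted p = 0.0269) and -0.18 (adjusted p = 0.51) in the same order.

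**Figure D4:**
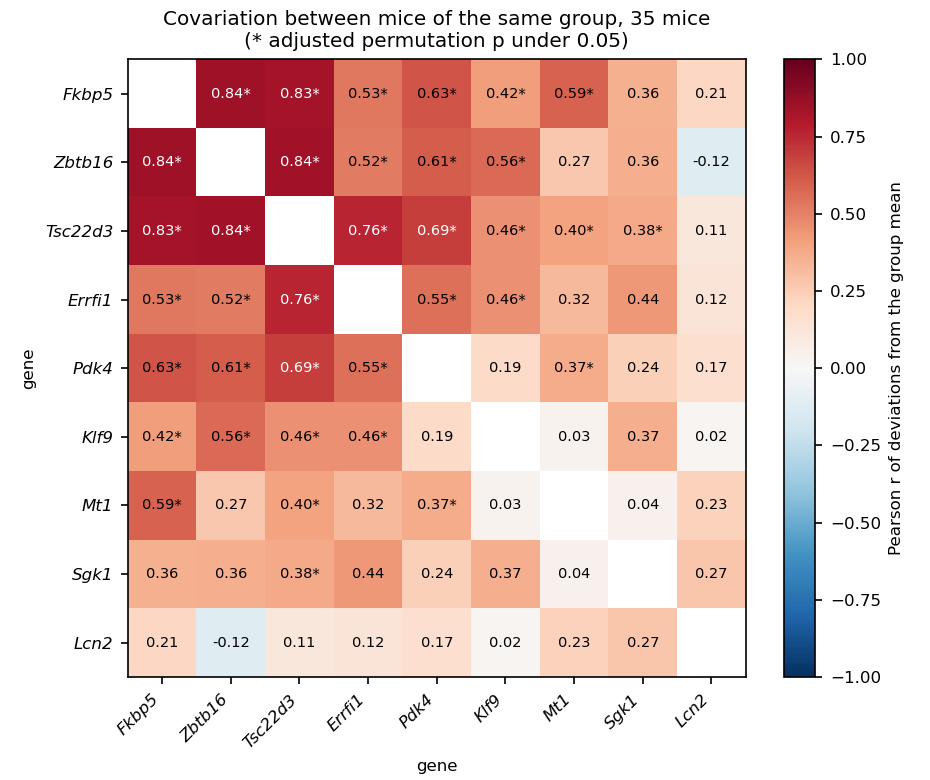
Pearson r between the deviations of each pair of genes (both axes) from their group means over 35 mice, from -1 (blue) to 1 (red), with an asterisk where the adjusted permutation p was under 0.05. Fkbp5, Zbtb16 and Tsc22d3 form the dark corner at 0.83 to 0.84, and the row of Lcn2 has no asterisk.

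**Figure D5:**
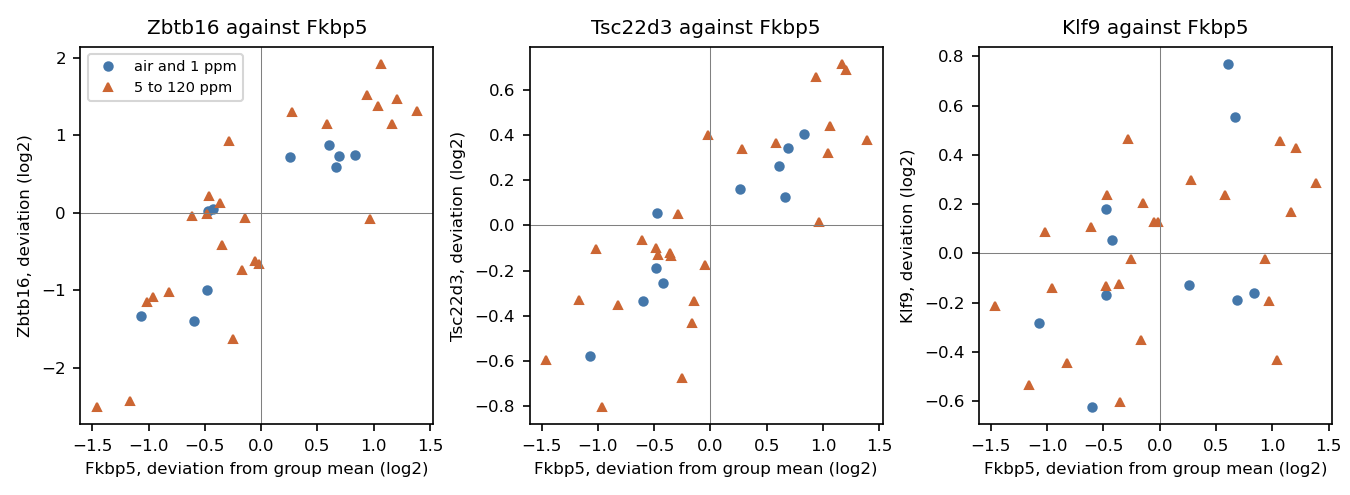
Deviation of Zbtb16, Tsc22d3 and Klf9 from the group mean (vertical axes, log2) against that of Fkbp5 (horizontal axes, log2) in 35 mice, as circles for air and 1 ppm and triangles for 5 to 120 ppm. Both kinds of point lie along the same rising band for Zbtb16 (r = 0.844) and Tsc22d3 (r = 0.830), and scatter more for Klf9 (r = 0.418).

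The genes whose deviations were most like those of Fkbp5 among 17096 others were Rgcc (r = 0.932), Map3k6 (0.871) and Mcf2l (0.867). For Tsc22d3 they were Foxo3 (0.895), Mcf2l (0.855) and Zbtb16 (0.837), Foxo3 being a transcription factor active when insulin signalling is low. For Mt1 they were Selenbp1 (0.845), Selenbp2 (0.785) and Adipor2 (0.747), and Selenbp1 and Selenbp2 are near-identical genes whose probes may be shared. For Lcn2 they were Itih4 (0.691), Ccl9 (0.640) and Sftpa1 (0.639), an acute phase protein, a chemokine and a surfactant protein. For Pdk4 they were Lpin1 (0.773), Cycs (0.772) and Slc47a1 (0.722). None of the 3 nearest genes of Mt1, Lcn2 or Pdk4 is among the 3 nearest of Fkbp5. These likenesses are descriptions over 35 mice on shared arrays and carry no test.

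Of 17 measured genes of a list of other glucocorticoid targets, 14 correlated positively with Fkbp5 between mice, and 5 were among the 170 highest of all genes. These were Map3k6, Angptl4 (0.698), Lpin1 (0.658), Arrdc2 (0.532) and Scnn1a (0.523). The list's median r was 0.193, against 0.0202 over all genes, of which 53.9% correlated positively. Several other lists had medians near it: 0.181 for whole lung markers, 0.176 for clock genes and 0.161 for T and innate lymphoid cell markers. Fasting and fatty acid genes gave 0.16 and receptor and hormone supply 0.156. The clock and fasting lists each had 1 gene among the 170 highest. Receptor chaperones gave a median of -0.14 and receptor coregulators -0.0052.

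Levels of markers of other cell types were set against the members' deviations in 54 relations, together with the interquartile range of the array. Errfi1 varied with the whole lung marker level (r = 0.620, rho = 0.583, permutation p = 3.70e-04 and 7.30e-04, adjusted p = 0.020 and 0.0394, 0.543 without the 2 farthest mice, 0.761 and 0.527 within the sets). Pdk4 with the heart muscle level gave r = 0.571 (rho = 0.388, permutation p = 0.0331 and 0.0474, adjusted p = 0.414 and 0.418), and 0.361 without the 2 farthest mice, so that it rests on those mice; it was -0.25 within air and 1 ppm and 0.708 within 5 to 120 ppm. The adipocyte level, from 5 of 8 markers, was 8.19 in 120 ppm mouse 3 and 3.75 to 7.93 in all other mice, and its part in the Pdk4 values was not tested. Lcn2 with the neutrophil level gave r = 0.285 (rho = 0.282, permutation p = 0.197 and 0.139, adjusted p = 0.664 and 0.598), with 0.418 without the 2 farthest mice and 0.373 and 0.265 within the sets. For Fkbp5 all 6 relations had an |r| of 0.237 or less over the 35 mice. Within air and 1 ppm its r was -0.60 with the heart muscle level and -0.61 with the adipocyte level, and within 5 to 120 ppm 0.119 and -0.037.

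Genes that act upstream of the members were called at every concentration from 5 ppm up. The receptor gene Nr3c1 was higher at 5 ppm by 2.59 ± 0.184 (9.08 against 6.49, limma, adjusted p = 4.37e-14) and at 120 ppm by 2.18 (adjusted p = 4.89e-12). Hsd11b1, whose enzyme regenerates active hormone inside cells, was higher by 1.37 at 5 ppm (adjusted p = 1.44e-11) and 1.34 at 120 ppm. H6pd, which supplies that enzyme with its cofactor, fell by 1.43 at 5 ppm (adjusted p = 1.25e-13) and by 0.87 at 120 ppm. In the list of receptor and hormone supply 5 of 5 genes were called at each concentration from 5 to 120 ppm, 3 upward and 2 downward. The background share of all genes called was 77.0% at 5 ppm and 68.9% at 120 ppm.

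All 4 measured receptor chaperones of 6 listed rose from 5 to 120 ppm. Beside this and the coregulators below, 77.0% of all genes were called at 5 ppm (29.6% upward) and 68.9% at 120 ppm (29.8% upward). Ptges3, the cochaperone p23, was higher by 1.71 at 5 ppm (adjusted p = 1.58e-14), Hsp90aa1 by 2.86 (adjusted p = 3.23e-09) and Hspa8 by 0.68 (adjusted p = 3.84e-05). Of 5 measured coregulators of 8 listed, 3 rose at 5 ppm and 5 at 120 ppm, with Ncoa1 at 0.83 (adjusted p = 1.18e-09) and Nrip1 at 1.47 (adjusted p = 1.85e-09) at 5 ppm, and Ncoa3 at 0.40 at 120 ppm (adjusted p = 3.09e-04). With the interquartile range confounded with concentration, the same limit holds for these genes as for the members.

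Other glucocorticoid targets moved in both directions. At 5 ppm 16 of 17 measured were called, 4 upward and 12 downward, with a median of -0.96 against -0.23 over all genes. At 120 ppm 15 of 17 were called, 4 upward and 11 downward. Of all genes, 77.0% were called at 5 ppm (29.6% upward) and 68.9% at 120 ppm (29.8% upward). Anxa1, which encodes the anti-inflammatory protein annexin, rose by 1.99 at 5 ppm (adjusted p = 1.70e-14), Pik3r1 by 1.73 (adjusted p = 1.56e-11) and Bcl6 by 1.23 (adjusted p = 3.98e-08). Per1, a clock gene with receptor sites, fell by 1.93 at 5 ppm (adjusted p = 2e-06) and by 1.39 at 120 ppm (adjusted p = 2.64e-04). Dusp1, a phosphatase that stops stress kinases, fell by 0.44 at 5 ppm (adjusted p = 0.013) and by 0.59 at 120 ppm (adjusted p = 0.00141).

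Lists that share regulators with single members were described the same way. In the clock list, 5 of 7 measured genes were called at 5 ppm (4 upward) and 4 of 7 at 120 ppm (4 upward), where 77.0% and 68.9% of all genes were. Per2 was higher by 1.89 at 120 ppm (adjusted p = 1.12e-07), Ciart by 1.39 (adjusted p = 7.52e-07) and Nr1d2 by 3.08 (adjusted p = 1.17e-07). Dbp, the output gene of the clock, gave -1.41 ± 0.851 at 5 ppm (adjusted p = 0.13) and 1.78 at 120 ppm (adjusted p = 0.0636). In the metal response list, set beside Mt1, 4 of 5 were called at 5 ppm (1 upward), near the 77.0% of all genes, and 2 of 5 at 120 ppm (1 upward) against 68.9%. The zinc exporter Slc30a1 was higher by 0.73 at 5 ppm (adjusted p = 7.26e-07), Mtf1, the metal-sensing factor, was lower by -0.24 (adjusted p = 0.0196), and Slc39a14 gave -0.25 (adjusted p = 0.163).

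In the acute phase list, set beside Lcn2, 4 of 7 were called at 5 ppm (3 upward) and 5 of 7 at 120 ppm (3 upward), against 77.0% and 68.9% of all genes. At 5 ppm Steap4 was higher by 1.72 (adjusted p = 4.10e-10) and Tnfaip3 by 0.61 (adjusted p = 7.12e-04), and Lrg1 fell by 1.53 (adjusted p = 4.12e-07). In the fasting and fatty acid list, set beside Pdk4, 4 of 7 were called at 5 ppm (2 upward) and at 120 ppm (3 upward), against the same shares. Acadm, which oxidises fatty acids, was higher by 1.98 at 5 ppm (adjusted p = 9.36e-13), Cpt1a by 0.38 (adjusted p = 0.0154), and the dim Foxo1 fell by 0.33 (adjusted p = 8.36e-04). Of the cell type markers at 5 ppm, where 77.0% of all genes were called, 4 of 8 for neutrophils and 2 of 7 for heart muscle were called, with each call downward. For T and innate lymphoid cells 4 of 6 were called, 2 upward and 2 downward, and for adipocytes 0 of 5. For whole lung 5 of 7 were called, 3 upward and 2 downward.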

How the data were processed

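Total RNA of 35 lungs was hybridised to Affymetrix mouse arrays, per the labels' protocols. The authors deposited log2 values per probe set; RMA and Partek are named in the submitters' processing notes, without version or role, and array depth has no counterpart to read counts, so the number of arrays limits the precision. Of 45037 probe sets, 28898 carry 1 gene symbol, 551 several and 15588 none in the platform annotation; those with 1 symbol gave 17097 genes, each by its brightest probe set. Mt2 is annotated to no probe set and was skipped, so 9 members and 36 pairs were analysed instead of the 10 members planned.

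Groups were taken from the labels. All 7 groups entered a single limma fit (limma 3.58.1, R 4.3.3, lmFit and eBayes), with Benjamini-Hochberg adjustment over all genes and a threshold of 0.05. Slopes were fitted on log2 of the concentration plus 1 ppm. Pair correlations used deviations from group means and 100000 permutations within groups (Python 3.11.15, numpy 2.4.6). The scripts were tested on simulated data.

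Members and lists were chosen with earlier results of these data known. In other lists, Nr3c1, Hsd11b1, Per1, Dusp1 and Dbp and up to 3 genes with the smallest F-test p are named, and for Fkbp5, Tsc22d3, Mt1, Lcn2 and Pdk4 the 3 most similar genes. Other genes and single probe sets were named after their values were seen. Alternatives covered normalization, probe set choice, dim genes, the prior, the replicate number as a block, array covariates, the control group and each mouse left out. Marker levels as covariates were chosen after seeing the data. Deviations of mice with the same number correlated by 0.049 on average over 105 pairs, 46 of them over 0.1. Pairs with different numbers gave -0.0115 over 420 pairs, 113 of them over 0.1. The labels give the numbers only as biological replicates, so the main fit and the permutations did not use them to pair mice. Whether mice of the same number share a source of variation was not tested. Promoter windows came from RefSeq on GRCm38.p6.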

Additional observations from a re-analysis of the deposited data

Results flagged for a closer look

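Of 63 groups (9 genes in 7 groups of 5 mice), 6 held a mouse whose gap to its nearest neighbour, as a share of the group's range, exceeded Dixon's critical value of 0.71. Chance flags about 1 in 20 groups. For Klf9 these were air mouse 5, at 10.10 against a nearest value of 9.20, and 20 ppm mouse 3, at 9.66 against 10.37. For Pdk4 they were 10 ppm mouse 3, at 6.69 against 5.92, and 120 ppm mouse 3, at 8.54 against 5.54. Tsc22d3 stood out in 20 ppm mouse 1, at 11.62 against 10.84, and Lcn2 in 40 ppm mouse 2, at 9.53 against 9.07. The cause of these values was not tested.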

How the results depend on the processing

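Of 1442 results of single members under other settings, 1340 stayed on their side of the threshold with no called value changing sign, and of 1530 with a mouse left out, 1496 did. Most were not called in the main fit, and some settings refit the same probe set, so much of this agreement was fixed beforehand. With the interquartile range as a covariate 80 results stayed, 17 lost their call and 2 changed sign. With the array axis these counts were 80, 13 and 6. Values that were not called could change sign, as for Zbtb16 at 20 ppm (-0.74 by 1427638_PM_at against 0.45). Whether array spread or styrene set the differences cannot be told apart. With the interquartile range or the array axis as a covariate, the count of members called was 0 at 5, 10, 20, 40 and 120 ppm. The same held in the test over 7 groups and for the slope. Neither covariate overlaps between the array sets, so fitting it also takes out much of any difference between them. The interquartile range turned Sgk1 at 5 ppm to -0.058 and the Klf9 slope to -0.016. The array axis turned Sgk1 at 5 ppm to -0.13 and Klf9 to -0.50, -0.18, -0.21, -0.14 and -0.32 from 5 to 120 ppm. The dim Klf9 probe set 1452723_PM_at gave -0.087 at 5 ppm, -0.023 at 10 ppm and a slope of -5.46e-04. On ppm itself, or over 10 to 120 ppm alone, 0 members had a called slope, and that of Errfi1 over 10 to 120 ppm was -0.061. With 1 ppm in place of air, 4, 5, 4 and 3 members were called at 5, 10, 40 and 120 ppm. Fits of only the groups compared called 1 at 5 ppm and 2 at 20 ppm. The mean of probe sets called 3 at 120 ppm: Klf9 upward, and Zbtb16 (-1.50, adjusted p = 0.0445) and Mt1 (-0.35, adjusted p = 0.0367) downward. A fold of at least 1.5 called 1 at 5 ppm, and an adjusted p under 0.01 called 2 over 7 groups. Median centring kept all 99 results. Quantile normalization kept 98 and ended the call of the Pdk4 slope (adjusted p = 0.0838). The cause of these changes was not tested.

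With a mouse left out, counts ranged from 0 to 0 at 1 ppm, 2 to 3 at 5 ppm, 2 to 3 at 10 ppm, 2 to 4 at 20 ppm, 2 to 4 at 40 ppm, 1 to 2 at 120 ppm, 4 to 5 over 7 groups and 2 to 4 for the slope, and stayed at 0 in the other 3 comparisons. The Lcn2 slope, 0.062 with adjusted p = 0.0521, was called without air mouse 4, without mouse 2 or 4 at 5 ppm, without mouse 1, 3, 4 or 5 at 40 ppm, and without mouse 1 or 2 at 120 ppm (adjusted p from 0.00565 to 0.0483). The Sgk1 slope was called without 120 ppm mouse 4 (adjusted p = 0.0459). Pdk4 over 7 groups was called without air mouse 5 (adjusted p = 0.0424), 40 ppm mouse 4 (0.0282) or 5 (0.0251), and 120 ppm mouse 2 (0.05), 3 (0.00291) or 4 (0.0431). Member pairs called ranged from 13 to 21, and were 6 in air and 1 ppm alone and 11 in 5 to 120 ppm alone, where fewer mice were used.

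With the replicate number as a block, Sgk1 at 40 ppm (adjusted p = 0.0467) and the Lcn2 slope (adjusted p = 0.0445) were called, so the counts were 3 of 9 at 40 ppm and 4 of 9 for the slope, and no other call changed.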
